A study of Mus musculus with 16 samples.

Results

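Cytochrome P450 genes other than those of the Cyp4a and Cyp2c subfamilies and Cyp7a1 were examined for N6-methyladenosine (m6A) peaks in mouse liver. Members were all genes whose name in a peak list begins with Cyp and a digit, after those exceptions, and that had a peak in at least 1 list. There were 34 such genes among the 8284 genes with a peak, and they held 232 of 28297 peaks. Peaks of 1 gene that shared at least 1 base were joined into regions, which gave 104 member regions of 17936. The members fell into 15 subfamilies, and 33 of them are protein coding in RefSeq, Cyp2d13 being a transcribed pseudogene.

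The mice were 4 male db/db mice, obese and diabetic animals whose leptin receptor is defective, and 4 male lean controls labelled C57BL/6. The labels give no age and name db/db as the strain of the obese mice. Methylated RNA immunoprecipitation sequencing (MeRIP-seq), in which fragmented RNA is pulled down with an antibody to m6A, was done on total RNA of each liver. The deposited lists held 2475 to 4807 peaks per mouse, in which a peak has a fold enrichment within its own list. Depth was unknown, the input libraries were not analysed here, and in bulk liver fewer cells of a type and less RNA per cell cannot be told apart. Of 8 hepatocyte markers, 3 had a listed peak (Apoa1, Ttr and Hnf4a) and Alb had none, so the tissue label could be checked only in part. Of 4 markers each, 3 had a peak for cholangiocytes and for Kupffer cells, 4 for endothelial and for stellate cells, and 0 for lymphocytes and neutrophils. Sox9 of cholangiocytes, Kdr of endothelial cells and Lrat of stellate cells each had a peak in 7 mice, the most of any marker in their lists. Over the markers with a peak, the median number of mice was 1 for cholangiocytes, 3 for endothelial cells and 1.5 for stellate cells. The part of these cell types in the P450 results was not tested. Xist had no peak in any mouse, and peaks in Y-linked genes were listed in 5 of the 8 mice, all of which are labelled male.

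Cytochrome P450 enzymes are haem proteins that insert oxygen into their substrates with electrons from a reductase. In liver, the Cyp1, Cyp2 and Cyp3 families oxidise drugs, foreign chemicals and steroids, whereas Cyp4 enzymes oxidise fatty acids and others act on sterols, retinoic acid and vitamin D. m6A is written on adenosines of messenger RNA in a short consensus, and its readers affect splicing, stability and translation.

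Peaks over the start of the gene recurred in several members, and the sequences there are shown first. Of the 27 members with a start window in RefSeq (GRCm38.p6), 14 had a peak over the first 50 bases in at least 1 mouse and 7 had one in at least 2 mice. The share of all genes with such a peak was not counted, so these gene counts have no background. By peak, the share was 18.6% for members and 13.0% for all peaks, and in lean mice 2, 3 and 4 the member share was the lower. Each sequence holds 50 bases before the gene start and 50 from it on, and capitals mark the bases under a peak of any mouse.
Cyp4f13, chr17:32947312-32947411, minus strand: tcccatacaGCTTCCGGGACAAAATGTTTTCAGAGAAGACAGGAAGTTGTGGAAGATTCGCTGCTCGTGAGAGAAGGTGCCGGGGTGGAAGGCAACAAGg
Cyp2b13, chr7:26061445-26061544, plus strand: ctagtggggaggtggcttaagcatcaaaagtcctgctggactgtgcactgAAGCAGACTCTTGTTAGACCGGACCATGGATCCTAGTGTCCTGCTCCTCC
Cyp2b9, chr7:26173359-26173458, plus strand: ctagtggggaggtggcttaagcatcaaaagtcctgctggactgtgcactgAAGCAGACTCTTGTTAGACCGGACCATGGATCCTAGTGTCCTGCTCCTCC
Cyp2d11, chr15:82393973-82394072, minus strand: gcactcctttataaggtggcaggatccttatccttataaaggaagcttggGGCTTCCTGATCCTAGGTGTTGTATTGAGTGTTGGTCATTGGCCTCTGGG
Cyp2a4, chr7:26307142-26307241, plus strand: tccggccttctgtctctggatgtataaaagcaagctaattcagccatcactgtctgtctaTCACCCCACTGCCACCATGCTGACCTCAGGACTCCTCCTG
Cyp3a57, chr5:145345219-145345318, plus strand: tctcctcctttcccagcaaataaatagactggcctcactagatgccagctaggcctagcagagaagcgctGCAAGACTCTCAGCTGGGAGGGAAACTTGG
Cyp4b1, chr4:115647672-115647771, minus strand: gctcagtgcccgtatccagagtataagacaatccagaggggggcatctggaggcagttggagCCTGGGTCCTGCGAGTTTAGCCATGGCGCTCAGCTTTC

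The start of Cyp4f13, an enzyme of the fatty acid and eicosanoid oxidising Cyp4f subfamily, was covered in 7 mice, and its peaks lay on both sides of the annotated start. The first 50 bases of Cyp2b13 and Cyp2b9 are identical, and 298 of the 300 bases of their RefSeq windows agree. Reads from these bases alone cannot be assigned to 1 of the pair. All 5 peaks of the Cyp2b13 start region and all 3 of Cyp2b9 began on the base that the RefSeq window gives as the start, which for both genes lies inside the wider RefSeq gene bounds. All 4 peaks of the Cyp2d11 start region also had their 5′ edge on that base. The region of Cyp2d11 overlapped the gene of the microRNA Mir7684, and the read source between the pair was not tested. The covered bases of Cyp2a4 begin 10 bases into the gene and include the ATG in the shown stretch.

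Four-letter forms of the m6A consensus were searched on the transcript strand only, as GGAC or GAAC, and as AGAC or AAAC in the same way. Cyp2b13 and Cyp2b9 held GGAC as well as AGAC in the covered bases, Cyp2a4 held GGAC, and Cyp3a57 held AGAC as well as AAAC. Cyp4f13 held GGAC as well as AGAC in its covered bases before the start and none of the 4 in its first 50 bases. None of the 4 was in the covered bases shown for Cyp2d11 or Cyp4b1. Of 27025 RefSeq starts, 18.9% held GGAC in the first 50 bases, 14.7% GAAC, 17.4% AGAC and 13.2% AAAC, and 51.1% held at least 1 of them. In the 50 bases before the start, 15.9% held GGAC and 15.0% AGAC.

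The drug-metabolising enzymes made up most of the list. Of 34 RefSeq protein-coding genes of this role, 14 had no peak listed under their name, and the members with one, counting Cyp2d13, were 21 genes with 200 peaks. The enzymes of fatty acid and eicosanoid oxidation gave 7 genes with 24 peaks, those of steroids, sterols, bile acids and vitamin D 3 genes with 5 peaks, and those of retinoic acid 2 genes with 2 peaks. Cyp20a1, an enzyme with no known substrate, had 1 peak. In all, 42 of the 75 RefSeq protein-coding genes under the rule had no listed peak under their own name. One of them by name is Cyp3a41b, inside whose bounds lay 26 peaks listed under Cyp3a41a. Also among the 42 were Cyp2f2 of the drug-metabolising enzymes and Cyp2e1, the ethanol-inducible enzyme. So were Cyp27a1 and Cyp7b1, which act in bile acid synthesis, and Cyp8b1, the sterol hydroxylase that sets the type of bile acid. Cyp17a1 of steroid synthesis was another. A gene without a peak under its name can have its peaks listed under a near copy, lack m6A, be weakly expressed or be too thinly sequenced, and these cannot be told apart from peak lists.

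**Figure D1:**
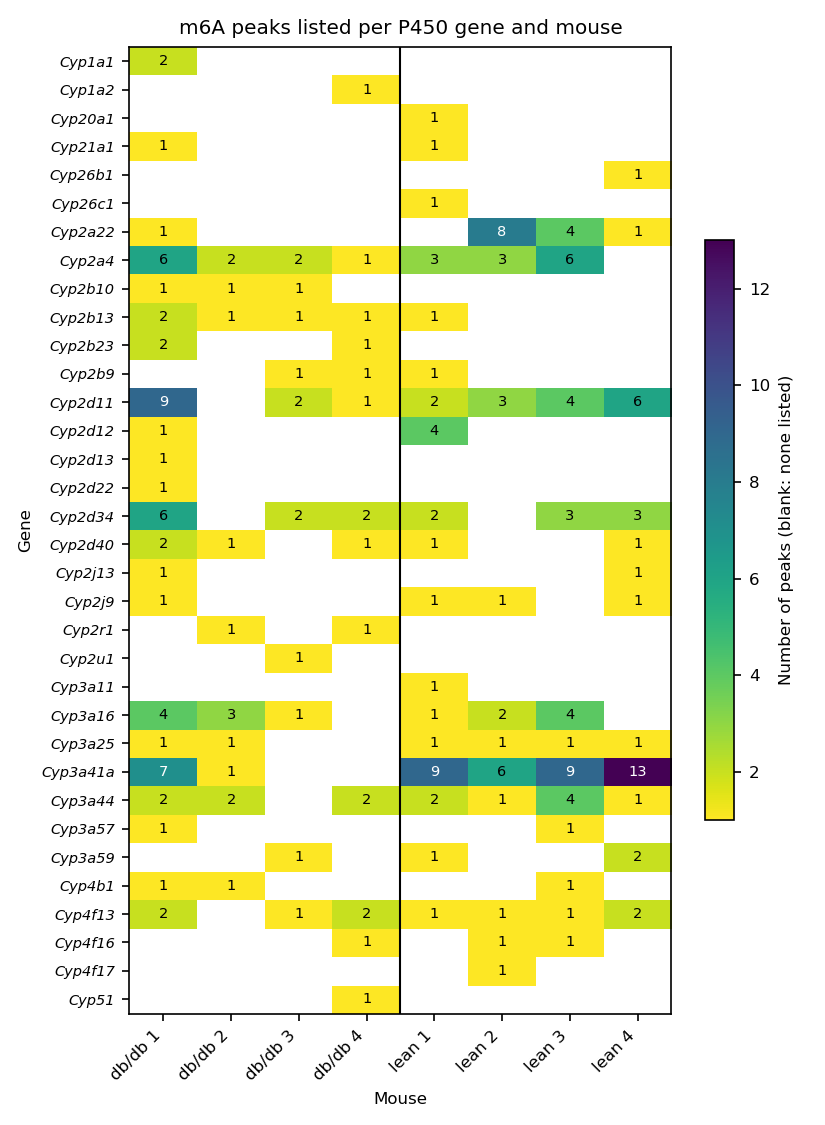
Number of listed m6A peaks for each of the 34 genes (rows, by subfamily) in each of the 8 mice (columns), with the number in each cell and blank cells where none was listed. Cyp3a41a reached 13 peaks in lean mouse 4, and Cyp2b10 and Cyp2b23 had cells filled in db/db mice only.

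Cyp2a4, Cyp2d11, Cyp3a44 and Cyp4f13 had a peak in 7 mice, and no member had one in all 8. Members in 4 or more mice numbered 12, or 35.3%, against 25.3% of all genes. Members in 1 mouse numbered 11, or 32.4%, against 38.5% of all genes. Of the 34, 20 had a peak in both genotypes, and 3 had one in db/db mouse 1 only. Members in db/db mice only numbered 9, or 26.5%, against 30.1% of all genes. Members in lean mice only numbered 5, or 14.7%, against 20.8% of all genes. By region, 54 of 104, or 51.9%, were in 1 mouse, against 76.6% of all regions, and 22, or 21.2%, were in 4 or more mice, against 7.92%. Of the 104, 19 were seen in db/db mouse 1 only. Of 50 member regions seen in at least 2 mice, 25, or 50%, had 1 start or 1 end in common to all their mice, against 18.8% of all such regions.

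db/db mouse 1 stood apart, with 55 member peaks, while db/db mice 2, 3 and 4 had 14, 13 and 16. Lean mice 1 to 4 had 34, 28, 39 and 33. The list of db/db mouse 1 was the longest, at 4807 peaks, and those of the other db/db mice held 2831, 3640 and 4251. Member peaks made up 1.14% of its list, against 0.495%, 0.357% and 0.376% in db/db mice 2, 3 and 4 and 0.774%, 0.937%, 1.58% and 1.13% in lean mice 1 to 4. Member peaks per mouse averaged 24.5 ± 20.4 (SD, n = 4) for db/db and 33.5 ± 4.51 (SD, n = 4) for lean mice, and the groups overlapped. Without db/db mouse 1, the db/db mean was 14.3 ± 1.53 (SD, n = 3) and the groups did not overlap.

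The genes with a peak per mouse numbered 22, 10, 10 and 13 for db/db mice 1 to 4 and 18, 11, 12 and 12 for lean mice 1 to 4, means of 13.8 ± 5.68 and 13.3 ± 3.20 (SD, n = 4 each). Each member with a peak held 2.5, 1.4, 1.3 and 1.23 peaks in db/db mice 1 to 4 and 1.89, 2.55, 3.25 and 2.75 in lean mice 1 to 4. The means were 1.61 ± 0.599 and 2.61 ± 0.564 (SD, n = 4 each), and db/db mouse 1 was the only db/db mouse above any lean mouse. Over all genes, the number of peaks per gene lay between 1.23 and 1.47 in the 8 mice.

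**Figure D2:**
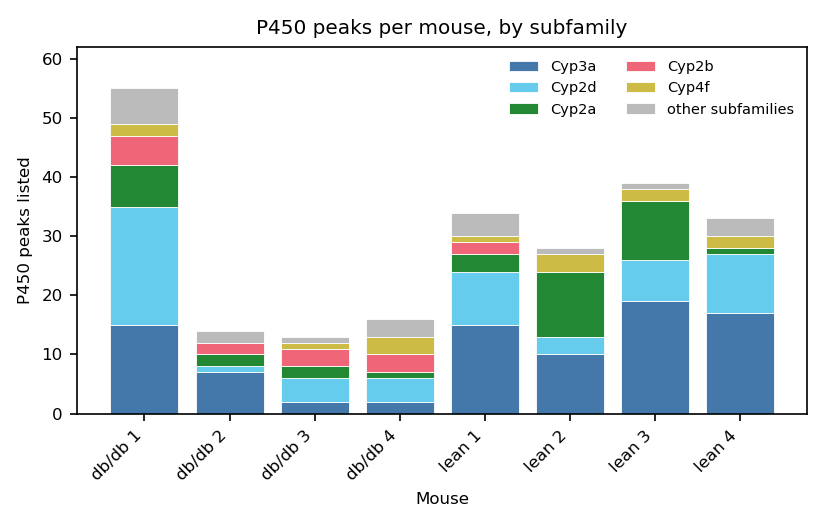
Number of listed P450 peaks in each mouse, stacked by subfamily. db/db mouse 1 had 55 peaks and the other db/db mice 13 to 16, while lean mice had 28 to 39.

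The presence of a peak in each gene and region was compared between genotypes with a two-sided Fisher exact test and Benjamini-Hochberg adjustment over all 8284 genes or 17936 regions. The smallest p that 4 against 4 mice allow is 0.0286 in this exact test, and no gene passed an adjusted threshold of 0.05. No member gene and no member region was found in every mouse of 1 genotype while missing from the opposite genotype, against 0.338% of all genes and 0.167% of all regions. At these shares a set as small as the members would seldom hold one, so the lack of any says little about them. With 4 against 4 mice, only this pattern gives an unadjusted p under 0.05 in the Fisher exact test. The test thus repeated the count, with 0 member genes and 0 member regions against 28 genes and 30 regions in all. The smallest member p in this exact test was 0.143, of the genes Cyp2b10 and Cyp2b13 and of 8 regions. Of these regions, 1 each of Cyp2b10 and Cyp2b13 leaned to db/db mice, and 5 listed under Cyp3a41a and 1 of Cyp2a22 leaned to lean mice.

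A peak in at least 2 more db/db than lean mice was listed for 4 of 34 members, or 11.8%, and 12.1% of all genes. The 4 were Cyp2b10, Cyp2b13, Cyp2b23 and Cyp2r1. A peak in at least 2 more lean than db/db mice was listed for 4 members, also 11.8%, and 7.33% of all genes. These were Cyp2a22, Cyp2j9, Cyp3a25 and Cyp3a41a. By region, 4 of 104, or 3.85%, leaned to db/db mice by at least 2 mice, against 4.47% of all regions, and they lay in Cyp2b10, Cyp2b13, Cyp2b23 and Cyp2d34. Without db/db mouse 1 this count was 2, or 2.35%, against 2.21% of all regions. Without lean mouse 1 it was 8, or 8.42%, against 6.97% of all regions. In contrast, 21 of 104, or 20.2%, leaned to lean mice, against 3.57% of all regions. Such a lean needs a region in at least 2 mice, and member regions were more often in at least 2 mice than all regions were. Of the 50 member regions in at least 2 mice, 21 leaned to lean and 4 to db/db mice. Of the 4202 such regions in all, 640 leaned to lean and 801 to db/db mice.

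The 21 regions lay in 8 genes, with 11 of them listed under Cyp3a41a. Cyp2a22 held 3, Cyp2d11 held 2, and Cyp2a4, Cyp2d34, Cyp3a25, Cyp3a44 and Cyp3a59 held 1 each. Without Cyp3a41a, 10 of 88 regions, or 11.4%, leaned to lean mice. Of the 21, 11 had no peak in any db/db mouse. The same was not counted for the 640 regions of all genes that leaned to lean mice, so this count has no background. Regions of 1 gene share its transcript and are not independent of each other. Without lean mouse 1 the count was 12 regions, without lean mouse 2 it was 11, and without lean mouse 3 or 4 it was 10. Those settings need a region to be in at least 2 of 3 lean mice. The share of all regions was then 1.78%, 1.93%, 2.17% and 1.89%. Without db/db mouse 1 the count was 27, or 31.8%, against 5.42% of all regions.

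The Cyp3a subfamily, the main drug-oxidising P450 enzymes of liver, held 87 peaks in 7 genes. Its peaks numbered 15, 7, 2 and 2 in db/db mice 1 to 4 and 15, 10, 19 and 17 in lean mice 1 to 4. The groups overlapped through db/db mouse 1, and the other db/db mice were below every lean mouse. This separation rested on Cyp3a41a, under which 45 of the 87 peaks were listed. Without that gene, db/db mouse 2 had more Cyp3a peaks than lean mice 2 and 4. The median fold of Cyp3a peaks was 27.4, and 9 of the 87 were over 100-fold. Cyp3a41a and Cyp3a44 are known for higher expression in female than in male mouse liver, and Cyp3a16 for expression in the fetal liver.

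Cyp3a41a had the most peaks of any member, 45, in 16 regions. It had 7, 1, 0 and 0 peaks in db/db mice 1 to 4 and 9, 6, 9 and 13 in lean mice 1 to 4. Of the 45 peaks, 19 lay inside Cyp3a41a (chr5:145694049-145720136) and 26 inside the bounds of its neighbour Cyp3a41b (chr5:145558664-145584732), a gene name the lists do not use. The RefSeq start windows of this pair agree in 292 of 300 bases. Of the 9 regions inside Cyp3a41b, 4 lay at the same distance from the start as a region of Cyp3a41a, within 10 bases, so reads of the copies may have been shared between them and the count of separate regions is uncertain.

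The region of highest fold in Cyp3a41a (chr5:145717925-145717998) had folds of 249.87 in db/db mouse 1 and 68.2, 153.9, 211 and 203 in lean mice 1 to 4. It had no peak in db/db mice 2, 3 and 4. The region of Cyp3a41b at nearly the same distance from the start (chr5:145582515-145582571) was in the same 5 mice, with folds of 45.5 in db/db mouse 1 and 12.6, 22.7, 32.0 and 33.4 in lean mice 1 to 4. Each region was listed for 1 db/db mouse and 4 lean mice, and the unadjusted two-sided Fisher exact p was 0.143.

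Cyp3a44 was listed in 3 db/db and 4 lean mice. Its region at that distance from the start (chr5:145803664-145803737) had folds of 372 in db/db mouse 1, 98.3 in db/db mouse 2, 22.1 in db/db mouse 4, 60.7 in lean mouse 1 and 45.4 in lean mouse 3. This region was in 3 db/db and 2 lean mice, and it did not lean to lean mice as those of Cyp3a41a and Cyp3a41b did, a contrast that was not tested. Its region near the gene end (chr5:145779553-145779746) had folds of 27.6 and 7.33 in db/db mice 1 and 2 and 12.6, 29.2, 61.4 and 52.2 in lean mice 1 to 4. Cyp3a16 had a peak in 3 mice of each genotype, and its region at 2.2 kb from the start (chr5:145467472-145467546) ranged from 12.6-fold in lean mouse 1 to 126-fold in db/db mouse 1.

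**Figure D3:**
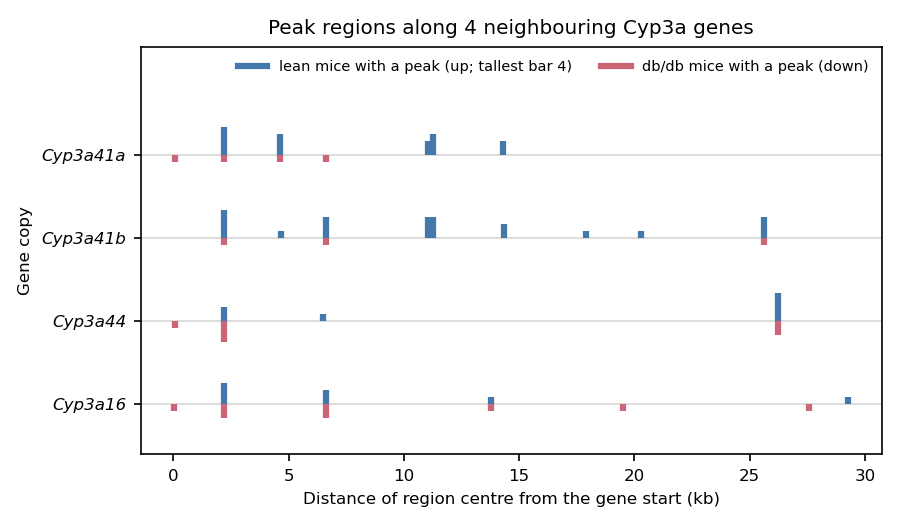
Peak regions along Cyp3a16, Cyp3a44, Cyp3a41b and Cyp3a41a, by distance of the region's centre from the gene start in kb, with bars up for the number of lean mice and down for the number of db/db mice. Regions of Cyp3a41b are those listed under Cyp3a41a, and all 4 genes held a region near 2.2 kb.

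Cyp3a25, a liver enzyme of the same subfamily, had 1 peak in each of 2 db/db and 4 lean mice. The peaks of db/db mice 1 and 2 and lean mice 1 and 4 covered the same 149 bases (chr5:145992888-145993036), with folds of 29.6, 25.2, 16.3 and 96.5. Lean mice 2 and 3 instead had a peak over 89 other bases (chr5:145993273-145993361), with folds of 24.9 and 17.6. Cyp3a11, whose induction by drugs runs through the pregnane X receptor, had 1 peak, of 7.33-fold, in lean mouse 1. Cyp3a59 reached 287-fold in lean mouse 4, and Cyp3a57 reached 105-fold in db/db mouse 1.

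The Cyp2a subfamily held 37 peaks in 2 genes, with 7, 2, 2 and 1 in db/db mice 1 to 4 and 3, 11, 10 and 1 in lean mice 1 to 4. Cyp2a4, a steroid hydroxylase known for higher levels in female mouse liver, was listed for 4 db/db and 3 lean mice. Its first region (chr7:26307202-26307397) had folds of 99.6, 10.9, 10.7 and 19.3 in db/db mice 1 to 4. The same region had folds of 88.8, 116 and 393 in lean mice 1, 2 and 3 and no peak in lean mouse 4. The 7 peaks differed in where they began and all ended on the same base. Folds are relative to each list, so they are given side by side and were not tested.

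Cyp2a22 was listed for 1 db/db mouse and 3 lean mice. Its peaks numbered 1 in db/db mouse 1 and 8, 4 and 1 in lean mice 2, 3 and 4. The region chr7:26938740-26938843 was in lean mice 2, 3 and 4 only, with folds of 8.47, 12.7 and 9.39. The region chr7:26938079-26938218 had folds of 6.04 in db/db mouse 1, 59.9 in lean mouse 2 and 107 in lean mouse 3. Cyp2a5, the coumarin hydroxylase of the same subfamily, had no listed peak.

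The Cyp2b subfamily held 15 peaks in 4 genes, 13 of them in the db/db group and 2 in the lean group. Its peaks numbered 5, 2, 3 and 3 in db/db mice 1 to 4, 2 in lean mouse 1 and 0 in lean mice 2, 3 and 4. Every db/db mouse had at least as many as lean mouse 1, whose value was equal to that of db/db mouse 2. Cyp2b10, the classic target of the constitutive androstane receptor, had 1 region (chr7:25915413-25915478), with folds of 14.2, 4.95 and 10.2 in db/db mice 1, 2 and 3 and no peak in the other mice.

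Cyp2b13, whose level is known to be higher in female mouse liver, had its start region (chr7:26061495-26061663) in all 4 db/db mice, with folds of 40.4, 20.0, 13.9 and 14.6. Lean mouse 1 also had it, with 13.9-fold, and the other lean mice did not. The unadjusted p was 0.143 and the adjusted p was 1 in the two-sided Fisher exact test. Without lean mouse 1 the gene was listed for 4 of 4 db/db and 0 of 3 lean mice, and without db/db mouse 4 Cyp2b10 was listed for 3 of 3 db/db and 0 of 4 lean mice. Each of these leaves out the 1 mouse that broke the pattern, which sets the exact p at its smallest, 0.0286, and the adjusted p was 1 for both genes. Cyp2b9, whose start has the same bases, had peaks of 8.36-fold and 11.5-fold in db/db mice 3 and 4 and 12.6-fold in lean mouse 1. In lean mouse 1 the peaks of Cyp2b9 and Cyp2b13 had the same length of 81 bases and the same score of 75.49. Cyp2b23 had peaks in db/db mice 1 and 4 only, with highest folds of 33.1 and 30.3.

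The Cyp2d subfamily, which includes the mouse relatives of the human debrisoquine hydroxylase, held 58 peaks in 6 genes. They numbered 20, 1, 4 and 4 in db/db mice 1 to 4 and 9, 3, 7 and 10 in lean mice 1 to 4. The means were 7.25 ± 8.62 and 7.25 ± 3.10 (SD, n = 4 each), and without db/db mouse 1 the db/db mean was 3 ± 1.73 (SD, n = 3). Cyp2d11 gave 27 of these peaks in 9 regions, with 9, 0, 2 and 1 in db/db mice 1 to 4 against 2, 3, 4 and 6 in lean mice 1 to 4.

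In Cyp2d11, the region chr15:82390893-82391003 had folds of 76.3 and 7.66 in db/db mice 1 and 4. The same region had 11.1, 22.3, 24.4 and 23.96 in lean mice 1 to 4. Its start region (chr15:82393759-82394022) had folds of 98.6 in db/db mouse 1, 5.48 in db/db mouse 3, 33.4 in lean mouse 2 and 26.1 in lean mouse 4. Cyp2d34 had a peak in 3 mice of each genotype, and its most recurrent region (chr15:82620885-82620907) was short, with peaks of 11 to 23 bases that all ended on 1 base. Cyp2d40 had a region in 3 db/db and 2 lean mice with low folds, between 3.96 and 6.86. Cyp2d12 had 4 peaks in lean mouse 1 and 1 in db/db mouse 1, and Cyp2d13 and Cyp2d22 had 1 each, in db/db mouse 1.

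Cyp1a1 and Cyp1a2, targets of the aryl hydrocarbon receptor, had peaks in 1 mouse each. Cyp1a1 had 2 peaks in db/db mouse 1, the higher of 25.4-fold, and Cyp1a2 had 1 of 2.99-fold in db/db mouse 4.

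Among the fatty acid and eicosanoid enzymes, Cyp4f13 was the most recurrent. Its start region (chr17:32947313-32947402) had folds of 20.9, 13.6 and 19.8 in db/db mice 1, 3 and 4 and 24.2, 20.9, 14.03 and 13.4 in lean mice 1 to 4. These folds overlapped between genotypes and spanned a narrow range, 13.4 to 24.2. Cyp4f16 was listed for 1 db/db mouse and 2 lean mice, with a highest fold of 32.4, and Cyp4f17 had 1 peak of 16.6-fold in lean mouse 2. Cyp4b1 was listed for 2 db/db mice and 1 lean mouse, between 7.35-fold and 23.5-fold.

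Cyp2j9 and Cyp2j13 belong to the subfamily of arachidonic acid epoxygenases. Cyp2j9 had a peak of 11.9-fold in db/db mouse 1 and of 6.78, 6.16 and 13.7-fold in lean mice 1, 2 and 4. Its difference of 2 mice was gone with peaks of p 1e-10 or smaller and with lists of equal length. Cyp2j13 had 61.98-fold in db/db mouse 1 and 39.7-fold in lean mouse 4. Cyp2u1, a hydroxylase of long-chain fatty acids, had 1 peak, of 12.3-fold, in db/db mouse 3.

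Enzymes of sterols, steroids, vitamin D and retinoic acid had few peaks. Cyp2r1, the vitamin D hydroxylase of liver, had peaks of 11.9-fold in db/db mouse 2 and 26-fold in db/db mouse 4, at different places in the gene. Cyp51, the lanosterol demethylase of cholesterol synthesis, had 1 peak of 5.54-fold in db/db mouse 4. Cyp21a1, a steroid hydroxylase of the adrenal gland, had 33.1-fold in db/db mouse 1 and 16.4-fold in lean mouse 1. Cyp26b1 and Cyp26c1, which clear retinoic acid, had 1 peak each in lean mice, of 8.18-fold and 5.11-fold.

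**Figure D4:**
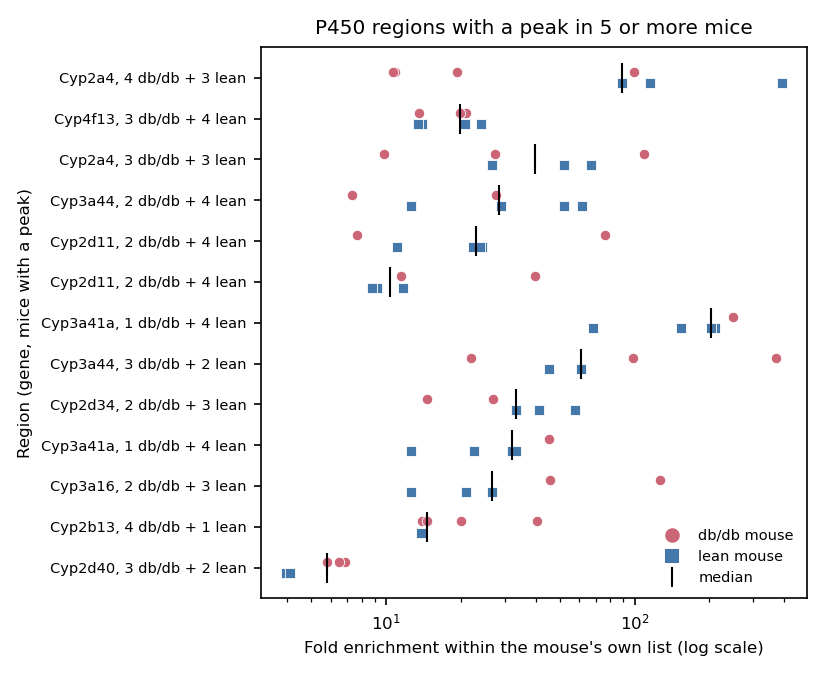
Fold enrichment within each mouse's own list (log scale) for the P450 regions with a peak in at least 5 mice, with circles for db/db mice, squares for lean mice and a bar at the median. The first Cyp2a4 region spanned 10.7 to 393, and the Cyp4f13 start region spanned 13.4 to 24.2.

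The rank of member folds within their lists differed between subfamilies. The median member peak was at percentile 74.6 of its own list, and the median per mouse lay between 60.9 and 86.2. The 87 Cyp3a peaks had a median percentile of 90.0, whereas the 58 Cyp2d peaks had one of 45.8. The medians of Cyp2a, Cyp2b and Cyp4f were 64.1, 68.3 and 74.4. Cyp1a, Cyp20a, Cyp26b, Cyp26c and Cyp51, with 1 to 3 peaks each, had medians below the middle of the list, as Cyp2d did. Peaks over 100-fold numbered 13 of 232, or 5.60%, against 1.76% of all peaks. They lay in 7 genes, Cyp2a4, Cyp2a22, Cyp3a16, Cyp3a41a, Cyp3a44, Cyp3a57 and Cyp3a59. db/db mouse 1 had 5 of the 13, the other db/db mice and lean mouse 1 had 0, and lean mice 2, 3 and 4 had 3, 3 and 2.

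Position along the gene, introns included, could be set for 177 member peaks and 21124 peaks in all. The member peaks left out were the 26 inside Cyp3a41b and those of members without a start window. A region counts again for each mouse that has it, so these peaks are not independent of each other. Member peaks lay in the first 20% of the gene in 42.9% of cases, against 29.1% of all peaks, and in the last 20% in 19.2%, against 37.7%. The share in the first 20% was above that of the mouse's whole list in 7 of 8 mice, the exception being lean mouse 4, with 21.7% against 32.9%. Peaks over the first 50 bases made up 18.6% of member peaks and 13.0% of all peaks. In db/db mice 3 and 4 they were 60% of 10 and 42.9% of 14 member peaks, against 12.5% and 11.7% of their whole lists. In db/db mice 1 and 2 and lean mouse 1 they were 14.6%, 21.4% and 20% of member peaks, against 8.15%, 13.4% and 13.2%. In lean mice 2, 3 and 4 the member share was below that of the list, at 12.5%, 9.68% and 8.70% against 17.9%, 13.3% and 17.2%. Without db/db mouse 1, 45.6% of member peaks lay in the first 20%.

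**Figure D5:**
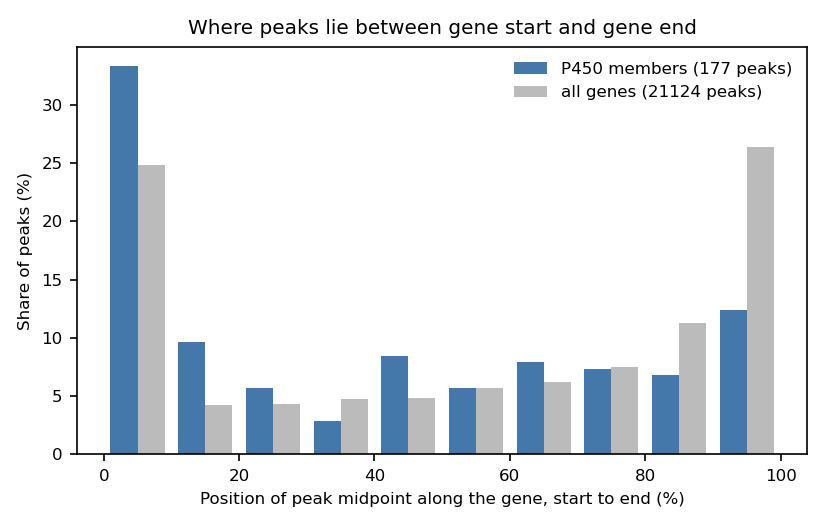
Share of peaks by position of their midpoint between the start and the end of the gene, in bins of 10%, for 177 P450 peaks and 21124 peaks of all genes. The P450 peaks are weighted to the first 20% (42.9% against 29.1%) and away from the last 20% (19.2% against 37.7%).

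The partners and regulators of P450 enzymes were read from 4 lists with 63 genes, of which 31 had a peak. At least 2 more db/db mice had a peak in 5 of the 31, which were Ahr, Hnf4a, Nr3c1, Rara and Nqo1, and 12.1% of all genes did so. At least 2 more lean mice had a peak in 2 of the 31, Fech and Fmo2, and 7.33% of all genes did so. None of the 63 passed the Fisher exact test after adjustment. Cebpb, a liver transcription factor, had a peak in all 8 mice. Rxra, the partner of many nuclear receptors, Ncor1, a corepressor, Hmox2, a haem oxygenase, Pgrmc2, a haem-binding membrane protein, and Ugt1a6a, a conjugating enzyme, had one in 7 mice. Rara, a retinoic acid receptor, and Ncoa1, a coactivator, had one in 6 mice. Por, the reductase that supplies P450 enzymes with electrons, Nr1i2 and Nr1i3, the pregnane X and constitutive androstane receptors, and Alas1, the first enzyme of haem synthesis, had no listed peak.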

How the data were processed

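Livers of 8 male mice were profiled by MeRIP-seq, and 1 list of m6A peaks per mouse was used. The labels name 16 libraries, and the 8 input libraries were not analysed here. Nothing in the labels says more of how the mice relate than that each is a separate sample. Per the submitters' processing notes, cutadapt 1.9.3 and HISAT2 2.0.4 were used with build mm10, while the sources used here name neither the peak caller nor its use of the input or of reads with several matches. Fold enrichment is a ratio the authors deposited, relative to each list. The deposited score is -10 times the log10 p-value, and the smallest listed score was 50, a p-value of 1e-05. Peak length is the other deposited value used. A duplicate score column per list, 8 in all, was left out. No read counts were given, so depth was unknown and no interval is printed.

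Starts were converted to count from 1. Gene bounds and start windows came from RefSeq (GRCm38.p6). Presence per gene and region was tested with Fisher's exact test (SciPy 1.17.1), with Benjamini-Hochberg adjustment, in Python 3.11.15 with pandas 2.3.3. Functions were tested on simulated data. Genes were named when they had a peak in at least 4 mice, differed by at least 2 mice, had a peak over 100-fold, led their subfamily or were partner genes in at least 6 mice or differing by 2, which took 25 members. The remaining members are named because the list is short. Members, lists and rules were chosen with earlier results of these data known. Alternatives were a fold of at least 4.7, a p of at most 1e-10, equal list length, RefSeq bounds, a 50% overlap, a replicate block and dropping 1 mouse at a time.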

Additional observations from a re-analysis of the deposited data

Results flagged for a closer look

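Of 22 groups of 4 mice checked for a mouse far from the others, 6 held one, and about 1 in 20 can be flagged by chance. The groups overlap, since subfamily peaks are part of the member peaks. The 6 are thus not separate, and an excess over chance was not tested. db/db mouse 1 had 55 member peaks, while the other db/db mice had 13 to 16. Its peaks per member gene were 2.5, against 1.23 to 1.4. It had 20 Cyp2d peaks, against 1 to 4, and 7 Cyp2a peaks, against 1 to 2. Its list was also the longest, at 4807 peaks, and member peaks were 1.14% of it, against 0.357% to 0.495% in the other db/db mice. Lean mouse 1 had peaks in 18 member genes, against 11 to 12 in the other lean mice, and its list was the longest of the lean mice, at 4394 peaks. Lean mouse 1 also had 2 Cyp2b peaks, in Cyp2b9 and Cyp2b13, and the other lean mice had 0.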

How the results depend on the processing

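The direction of the difference in member genes per mouse was not stable. It was 0.5 genes higher in db/db mice, and -0.75 with lists of equal length. Leaving out 1 mouse gave between -2.25, without db/db mouse 1, and 2.08, and -0.25 without lean mouse 2. The difference in member peaks, -9 per mouse, was between -19.2 and -5.17 when 1 mouse was left out, -4.5 both with peaks of p 1e-10 or smaller and with peaks inside RefSeq bounds, -12.25 at equal list length and -7.75 with folds of at least 4.7. The difference in the share of genes stayed between -0.134 and -0.0253 percentage points in those settings. With peaks of p 1e-10 or smaller, 1 member gene and 1 member region (both Cyp2b13) were listed for every mouse of 1 genotype alone. Leaving out 1 mouse gave 0 to 1 genes and 0 to 3 regions of this kind, in Cyp2a22, Cyp2b10, Cyp2b13 and Cyp3a41a, none with an adjusted p under 0.05. With 1 mouse fewer, fewer mice have to agree. The share of all genes and all regions of this kind was not counted in these settings or with the stricter p, so these counts have no background. The counts of leaning regions and the share of peaks in the first 20% were not planned results and were chosen after seeing the data. In the settings tried, regions leaning to lean mice ranged from 10 to 27. Those leaning to db/db mice ranged, in the same settings, from 2, without db/db mouse 1, to 8, without lean mouse 1. These 2 and 8 were 2.35% and 8.42% of member regions, against 2.21% and 6.97% of all regions. Peaks inside RefSeq bounds of the named gene gave 15 regions leaning to lean mice, or 15.8% against 3.51% of all. The share of peaks in the first 20% ranged from 41.1% to 46.1% when 1 mouse was left out. Of 300 values for 25 named genes, 2 moved by the spread between mice, both of Cyp2j9, and 0 turned sign. A difference of 0 could not be counted as turned. This held for Cyp21a1, Cyp2d34, Cyp3a16 and Cyp3a57. Their difference in the percent of mice with a peak, db/db minus lean, ranged from -25 to 25 when 1 mouse was left out.

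No sign of pairing by mouse number was seen: same-numbered db/db and lean mice correlated at -0.028, 0.0088, -0.0021 and -0.0040 in their deviations from the group means. Whether same-numbered mice shared a batch is not given in the labels and was not tested. With the numbers as a replicate block, 0 member genes and 0 member regions passed an exact sign-flip test, whose smallest p with 4 pairs is 0.125. Unknown depth limits each absent peak.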
